A study of Gallus gallus with 54 samples.

Results

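The nuclear-encoded subunits of the respiratory chain were described in granulosa cells (GCs) and theca cells (TCs) of chicken ovarian follicles. Members were the genes whose symbol follows the naming of NADH dehydrogenase (NDUFA, NDUFB, NDUFC, NDUFS and NDUFV, complex I), succinate dehydrogenase (SDHA to SDHD, complex II), the cytochrome bc1 complex (UQCR, complex III), cytochrome c oxidase (COX4 to COX8, complex IV) and ATP synthase (ATP5, complex V), with a single locus each. This gave 63 of the 26619 genes of the table, 29 in complex I, 3 in complex II, 7 in complex III, 7 in complex IV and 17 in complex V. The assignment follows the symbols, so NDUFA4 is counted in complex I although in mammals its protein is a subunit of cytochrome c oxidase.

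Complexes I and II pass electrons from NADH and succinate to ubiquinone, complex III passes them on to cytochrome c and complex IV to oxygen. Complexes I, III and IV pump protons across the inner mitochondrial membrane, and complex V lets them back and makes ATP. In steroid-making cells of the follicle the same organelle also holds the enzyme that cleaves the side chain of cholesterol, the first step towards progesterone, androgens and oestrogens.

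Follicles came from White Leghorn hens of 35 to 40 weeks, 10 hens in each treatment group. Hens of the blank group (NC) were fed water, the bic group received 15 mg of bicalutamide, an antagonist of the androgen receptor, and the mes group 100 mg of mestanolone, an androgen receptor agonist. The drugs were given for 4 days and withdrawn for 1 day before collection. The GC layer and the TC layer of small yellow follicles of 6 mm, of F5 follicles and of F1 follicles, the next to ovulate, were sequenced as polyadenylated RNA in 3 libraries per group, 54 in all. The library names carry a number, and libraries of a treatment with the same number were taken to come from the same hen, which no label states; the replicate numbers used here are those of the labels and not these numbers. The 3 libraries of bic GC F1 are repeat runs of 1 library, and replicates 1 and 2 of bic TC F1 and of NC GC F1 are repeat runs of 1 library each, so that these groups hold 1, 2 and 2 libraries. Values are given for each run and counted once in n.

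Counts per library ran from 33310408 to 64933667 with a median of 46846094. The 10 theca markers had a mean of 0.953 to 261 FPKM (fragments per kilobase of transcript, scaled to the fragments mapped in a library) in 25 GC libraries and of 936 to 1235 FPKM in the 27 TC libraries, and none of the 10 was under 1 FPKM in every GC library. The highest of these GC values were those of NC GC 6 mm replicates 1 and 3 (261 and 214 FPKM) and bic GC 6 mm replicate 1 (204 FPKM). The 6 granulosa markers had a mean of 366 to 2998 FPKM in the GC libraries and 56.3 to 1238 FPKM in the TC libraries, where NC TC F1 replicate 1 was the highest. The 2 GC libraries left out of these ranges were bic GC F5 replicate 2 and bic GC 6 mm replicate 2. The former went against its label, with 1082 FPKM of theca and 41.7 FPKM of granulosa markers. The latter, with 19.1 FPKM of theca and 1639 FPKM of granulosa markers, lay within the ranges. The group closest in profile to the latter was bic GC F1 (mean Spearman correlation 0.885), while that closest to replicates 1 and 3 of bic GC 6 mm was mes GC 6 mm (0.928 and 0.955). In the 25 GC libraries markers of other cell types were lower than in TC libraries for blood (mean of 0 to 11.9 against 11.4 to 544 FPKM), leukocytes (2.102 to 76.1 against 64.8 to 365 FPKM) and endothelium (0.0441 to 10.2 against 10.0 to 60.8 FPKM), whose ranges just overlapped, while those of the oocyte ran from 0 to 23.2 FPKM in GCs and from 0.0290 to 0.414 FPKM in TCs. Of the 2 GC libraries left out here, bic GC 6 mm replicate 2 had 121 FPKM of blood and 96.2 FPKM of leukocyte markers, and bic GC F5 replicate 2 had 212 FPKM of leukocyte and 37.7 FPKM of endothelium markers. Their part in the results below was not tested. In such bulk samples fewer cells of a type and less RNA per cell cannot be told apart.

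All 63 members passed the filter on low counts in each of the 28 comparisons. Their mean FPKM over the 54 libraries had a median of 107.9, against 11.4 for the 13212 genes with a mean of at least 1 FPKM, and 62 of 63 had a mean of at least 10 FPKM. The members are short genes, with a median longest transcript of 817 bp against 2675 bp. They also varied little, with a median coefficient of variation over all libraries of 28.2% (17.6% to 82.8%) against 51.5%. The level was uneven within the set: the 5 highest members held 22.1% of the summed FPKM. By complex, the median member had 80.8 FPKM in complex I, 61.9 in complex II, 107 in complex III, 195 in complex IV and 143 in complex V.

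The highest member of each complex over all libraries was NDUFA4 in complex I (chromosome 2, 26070094 to 26073822, mean 256 FPKM), SDHB, the iron-sulphur subunit, in complex II (chromosome 21, 183587 to 191965, 78.7 FPKM), UQCRH, the hinge protein, in complex III (chromosome 8, 21669092 to 21670566, 185 FPKM), COX6C in complex IV (chromosome 2, 128895036 to 128900741, 391 FPKM) and ATP5B, the catalytic beta subunit, in complex V (chromosome 33, 1630552 to 1633524, 453 FPKM). These coordinates are of the assembly Gallus_gallus-5.0. The 63 genes are scattered, with 60 of them on 27 chromosomes, 4 of these on Z and 1 on W, and 3 on unplaced scaffolds.

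Across the 18 group means of log2(FPKM + 1), the median correlation (Pearson's r) of a member with the summed members was 0.72, against -0.01 for 13125 other genes. Each member is part of the sum it is compared with, while the other genes are not. The group means also share hens and library scaling, so this is a description. The members most like the sum were ATP5H (r = 0.96), a subunit of the stalk of ATP synthase, NDUFA5 (0.95), NDUFB9 (0.92), COX4I1 (0.91) and UQCRH (0.89). The least like it were COX7A2L (-0.15), NDUFS1 (0.06), SDHA (0.10), ATP5A1W (0.20) and NDUFA12 (0.23). Outside the list the closest genes were PSMD4 (0.93), CLAPS2 (0.92), PSMD7 (0.92), NDUFAB1 (0.91) and UBL5 (0.91). PSMD4 and PSMD7 encode proteasome subunits, and NDUFAB1, the mitochondrial acyl carrier protein, is a subunit of complex I in mammals that the symbols used here did not take in.

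Summed over the members, TCs had most at F5 in each treatment. In NC hens the sums were 8458, 7345 and 7079 FPKM at 6 mm, 9104, 9209.8 and 9438 at F5 and 7601, 7491 and 7399 at F1, so that all 3 libraries of F5 lay above all 6 of the other stages. In mes hens they were 8524, 7917 and 6105, then 8256, 10289 and 8714, then 7281, 7298 and 7188 FPKM, with an overlap of 6 mm and F5 and none of F5 and F1. In bic hens they were 7137, 4864 and 7446, then 9268, 10524 and 9279, then 7825, 7014 and 7025 FPKM, where F5 again lay above both other stages and replicate 2 of 6 mm was the lowest TC library.

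In GCs the sums were spread more widely. In NC hens they were 11543, 7863 and 9836 FPKM at 6 mm, 11889, 7170.1 and 6952 at F5 and 8593, 8658 and 9309 at F1, and the stages overlapped, with F5 replicate 1 far above the rest of its stage. The sums of the 13 protein genes of the mitochondrial genome took 14.2, 7.96 and 10.9% of all FPKM in NC GC 6 mm and 11.8, 6.55 and 6.28% in NC GC F5, so that the libraries with the most member FPKM also had the most of the mitochondrial genome. In mes GCs the sums were 5689.9, 6113 and 5477, then 7217, 6334 and 5944, then 6357, 9482 and 8087 FPKM, and all 3 libraries of F1 lay above those of 6 mm. In bic GCs they were 7472, 4705 and 7281, then 6111, 8346 and 6177, then 6983, 6409 and 7081 FPKM, the last from the runs of 1 library. Ordered by their mean, the 18 groups ran from NC GC 6 mm, 9747 ± 1842 (SD, n = 3), to mes GC 6 mm, 5760.0 ± 324 (SD, n = 3), and 16 of the 17 pairs of neighbours in that order overlapped, NC TC F1 and mes TC F1 being the exception.

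**Figure D1:**
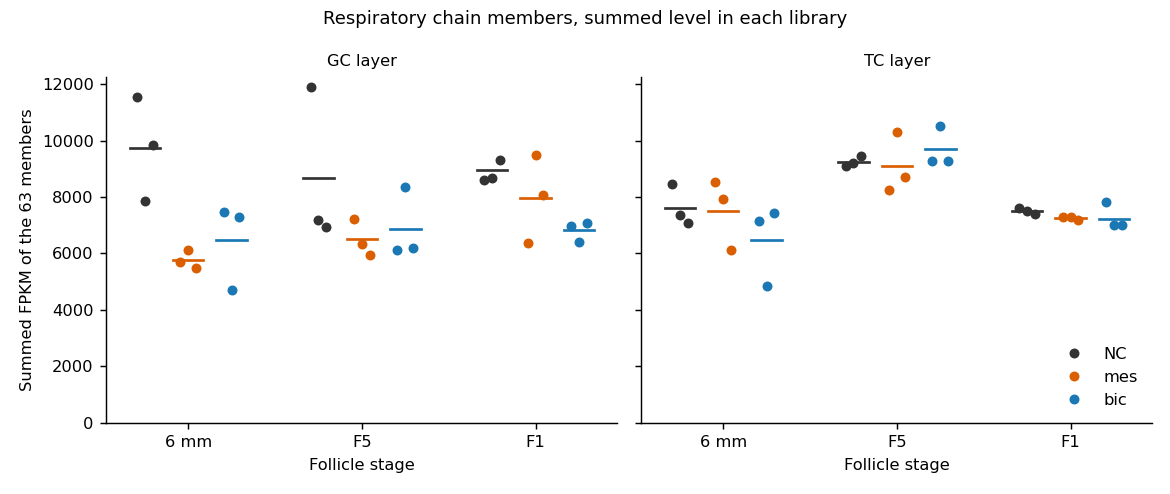
Summed FPKM of the 63 members (y axis) in each library by stage (x axis), with GCs on the left and TCs on the right; points are libraries or repeat runs, lines are group means and colours are treatments. In TCs the F5 libraries, from 8256 to 10524 FPKM, lie above all F1 libraries in each treatment, while in GCs the NC libraries of 6 mm and F5 spread from 6952 to 11889 FPKM.

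In TCs of NC hens most members had their highest level at F5. A call needed a Benjamini-Hochberg adjusted p no higher than 0.05 together with an average of 1 FPKM or more in either group, and log2 fold changes are after TMM scaling, which takes most genes as unchanged. Between 6 mm and F5, 61 of 63 members had a positive log2 fold change with a median of 0.40, against -0.02 over all genes. At an unadjusted p under 0.05 there were 48 members, and 4673 of 17079 genes. Calls were made for 6, all higher, where 4.02% of the 17079 genes tested were called and 1.76% in this direction. They were NDUFA5 and NDUFB1, accessory subunits of complex I, and ATP5G1, ATP5G3, ATP5J2 and ATP5L of the membrane part of ATP synthase. DESeq2 called 39 members, all higher and with these 6 among them, and 2945 genes in all. RLE factors gave 8 members and 652 genes, and limma on log2(FPKM + 1) 7 members, 4 of them shared, and 1036 genes. The 6 calls were not made with the hen as a block, which called 0 members and 19 genes in all, or with total counts in place of TMM factors. Total counts gave a median of 0.25 against -0.17 over all genes, a shift from TMM that all genes share. The 6 calls were also lost without replicate 2 or replicate 3 of either stage (0 calls each) and became 10 without replicate 1 of F5. In the same step 2 of 3 blood markers were called higher (median 1.68), 3 of 5 endothelium markers lower (-1.14), and 2 of 10 theca markers higher and 2 lower. The granulosa markers had a mean of 96.3, 95.3 and 97.9 FPKM at 6 mm and of 165, 355 and 614 FPKM at F5 in these TCs. The part of these cells in the result was not tested.

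ATP5G3 (chromosome 7, 16713222 to 16716391), 1 of the genes for subunit c, whose ring turns with the flow of protons, had 231, 226 and 189.9 FPKM at 6 mm, 294, 309 and 300.0 at F5 and 189, 173 and 152 at F1 in NC TCs. The libraries of F5 were above all others and those of F1 below all others. The log2 fold change was 0.62 ± 0.14 (SE, edgeR, adjusted p = 0.0496) from 6 mm to F5 and -0.69 ± 0.14 (SE, edgeR, adjusted p = 0.0175) from F5 to F1. In mes TCs it had 184, 210.1 and 139 FPKM, then 207, 321 and 225, then 139, 159 and 151. In bic TCs it had 176, 113 and 213 FPKM, then 282, 340.5 and 299.7, then 182, 159.8 and 168. F5 did not overlap with F1 in either drug group, and overlapped with 6 mm in mes hens, where the lowest F5 library was below the highest of 6 mm.

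NDUFA5 (chromosome 1, 22307624 to 22312674) had 47.0, 42.4 and 37.0 FPKM at 6 mm and 54.8, 60.1 and 57.1 at F5 in NC TCs, with no overlap, a log2 fold change of 0.58 ± 0.12 (SE, edgeR, adjusted p = 0.0433). Its libraries of F1, at 40.7, 42.4 and 40.7 FPKM, were back in the range of 6 mm.

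From F5 to F1 the median of the members in NC TCs was -0.18 against 0.01 over all genes, with 50 of 63 negative. Here 6 members fell and none rose, where 11% of all genes were called and 5.34% in this direction. They were ATP5A1, ATP5C1, ATP5G1 and ATP5G3, for the alpha, gamma and c subunits of ATP synthase, UQCRB of complex III and NDUFB4 of complex I. All 6 were also called lower under each of the other scalings and tools tried (RLE, DESeq2, total counts, limma on log2(FPKM + 1)). Total counts called 19 members and limma 21, all lower. Over all genes 912 were called lower with TMM, 1341 with total counts and 1375 by limma. With the hen as a block ATP5A1, ATP5C1, ATP5G3 and UQCRB were called, and ATP5G1 and NDUFB4 were not. Markers of other cells moved in this step too, with 2 of 4 leukocyte markers (median 1.18), 2 of 3 blood markers (1.18) and 2 of 5 endothelium markers (0.64) called higher and 2 theca markers of 10 higher and 3 lower. At F1 the granulosa markers had a mean of 1238, 247 and 214 FPKM in these TCs. The part of these cells was not tested. ATP5A1 (chromosome Z, 2151416 to 2159390) had 149, 133 and 126 FPKM at 6 mm, 180.2, 194 and 195 at F5 and 127, 119.7 and 100.2 at F1, a log2 fold change from F5 to F1 of -0.59 ± 0.14 (SE, edgeR, adjusted p = 0.0328). The libraries of F5 were again above all others. Together with ATP5A1W, its copy on the W chromosome, it had 204, 186 and 171 FPKM at 6 mm and 242, 254 and 195 at F5. The pair had 164, 172 and 146 FPKM at F1, so that F5 overlapped with 6 mm and not with F1. ATP5A1W was listed at 0 in F5 replicate 3. The count of members called in this step fell to 3 without replicate 2 or 3 of F1, and to 0 and 1 without replicates 2 and 3 of F5.

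The same order was seen in the levels of the drug-fed hens. Mean FPKM was higher at F5 than at 6 mm for 58 of 63 members in NC TCs, 63 of 63 in mes TCs and 63 of 63 in bic TCs, with median log2 ratios of mean FPKM + 1 of 0.27, 0.26 and 0.59 against -0.07, -0.07 and -0.01 over all genes. The libraries of F5 lay above those of 6 mm with no overlap for 38 members in NC TCs (all genes 14.1%), 12 in mes TCs (7.61%) and 57 in bic TCs (17.9%), and for none did they lie below. From F5 to F1 the libraries lay below with no overlap for 42 members in NC TCs (23.7%) and 45 in mes TCs (29.1%), and above for none. The 2 libraries of bic TC F1 were not entered in this count. Each comparison of stages is within hens of 1 treatment, and no test of the difference between treatments was run for these steps.

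**Figure D2:**
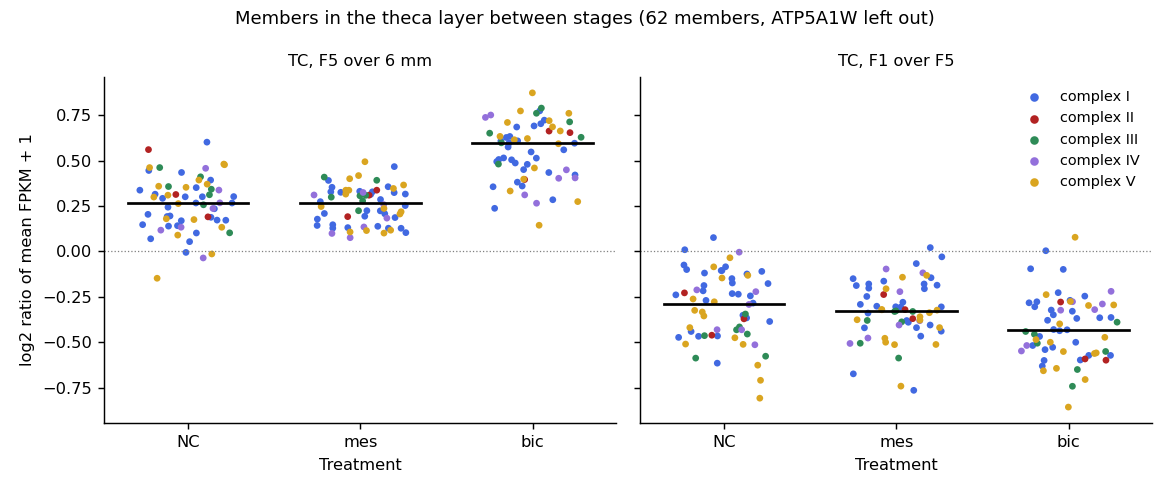
Log2 ratio of the mean FPKM + 1 (y axis) in TCs at F5 over 6 mm on the left and at F1 over F5 on the right, for 62 members as points coloured by complex, by treatment (x axis), with the median as a line; ATP5A1W, which is listed at 0 in some libraries, is left out. Nearly all points are above 0 on the left and below 0 on the right in each treatment, as in the counts of 58, 63 and 63 members with a higher mean at F5 than at 6 mm.

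From 6 mm to F1 the direction of the members in TCs depended on the scaling. The median in NC TCs was 0.21 after TMM, -0.06 with total counts and -0.04 on FPKM, and relative to the median of all genes it was 0.17, 0.17 and 0.08. With TMM 7 members were called, all higher, against 22.1% of all genes called and 10.4% called higher: NDUFA1, NDUFA2, NDUFA4, NDUFB2, NDUFV1, SDHC and ATP5I. With the hen as a block 4 members and 3579 of 17079 genes were called. With total counts 0 were called higher and 4 lower, ATP5C1, COX7A2L, NDUFB4 and UQCRB. Over all genes total counts called 861 higher and 3095 lower. All members named from such an alternative, here and below, were picked out after their values were seen. SDHC, a membrane anchor of succinate dehydrogenase, had 32.8, 36.4 and 28.5 FPKM at 6 mm and 43.5, 41.3 and 39.2 at F1, without overlap, with a log2 fold change of 0.60 ± 0.18 (SE, edgeR, adjusted p = 0.0433) that lost its call whichever of the 6 libraries was left out.

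NDUFA4 stayed high at F1 in TCs. It had 324, 264 and 239 FPKM at 6 mm, 392, 403 and 333 at F5 and 347, 394 and 393 at F1 in NC TCs, where F5 and F1 both lay above 6 mm and overlapped with each other. In mes TCs it had 308, 275 and 206, then 315, 412 and 366, then 357, 385 and 367 FPKM, and in bic TCs 267, 199.9 and 274, then 339.7, 382 and 429, then 379, 338 and 411 FPKM. Its log2 fold change from 6 mm to F1 was 0.71 ± 0.14 (SE, edgeR, adjusted p = 0.01) in NC hens. In mes hens it was 0.70 ± 0.17 (SE, edgeR, adjusted p = 0.0179) and in bic hens 0.78 ± 0.16 (SE, edgeR, adjusted p = 0.0461). In both drug groups it was the only member called, where 23.9% and 3.19% of all genes were called and 12.2% and 1.24% called higher. The call in mes hens held under all scalings and tools, but not without mes TC 6 mm replicate 2 or 3 or F1 replicate 2, and that in bic hens was lost with the hen as a block, with total counts, by limma on FPKM (0 members called in each) and whichever library was left out. The difference between mes and NC hens in this step was called for 0 of 63 members by edgeR and by DESeq2, where edgeR called 0% of all genes. With edgeR 1 member had an unadjusted p under 0.05, as had 853 of 18060 genes.

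In GCs of NC hens the FPKM of NDUFA4 lay below that of TCs at every stage with no overlap. It had 218, 114 and 201 FPKM at 6 mm, 186, 125 and 118 at F5 and 264, 283 and 297 at F1, with no overlap of F1 with the other stages. Its log2 fold change was 1.45 ± 0.31 (SE, edgeR, adjusted p = 0.0125) from F5 to F1 and 1.47 ± 0.31 (SE, edgeR, adjusted p = 0.00905) from 6 mm to F1. With total counts or on FPKM neither of these was called. In mes GCs it had 82.9, 83.4 and 79.0 FPKM, then 93.5, 86.1 and 123, then 210.4, 345 and 274, and rose by a log2 fold change of 2.31 ± 0.26 (SE, edgeR, adjusted p = 0.000375) from 6 mm to F1, a call that held under all scalings and tools. In bic GCs it had 163, 116 and 122 FPKM, then 89.3, 307 and 96.5, then 243, 227 and 253. The high value at F5 there is that of replicate 2, the library with theca markers.

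**Figure D3:**
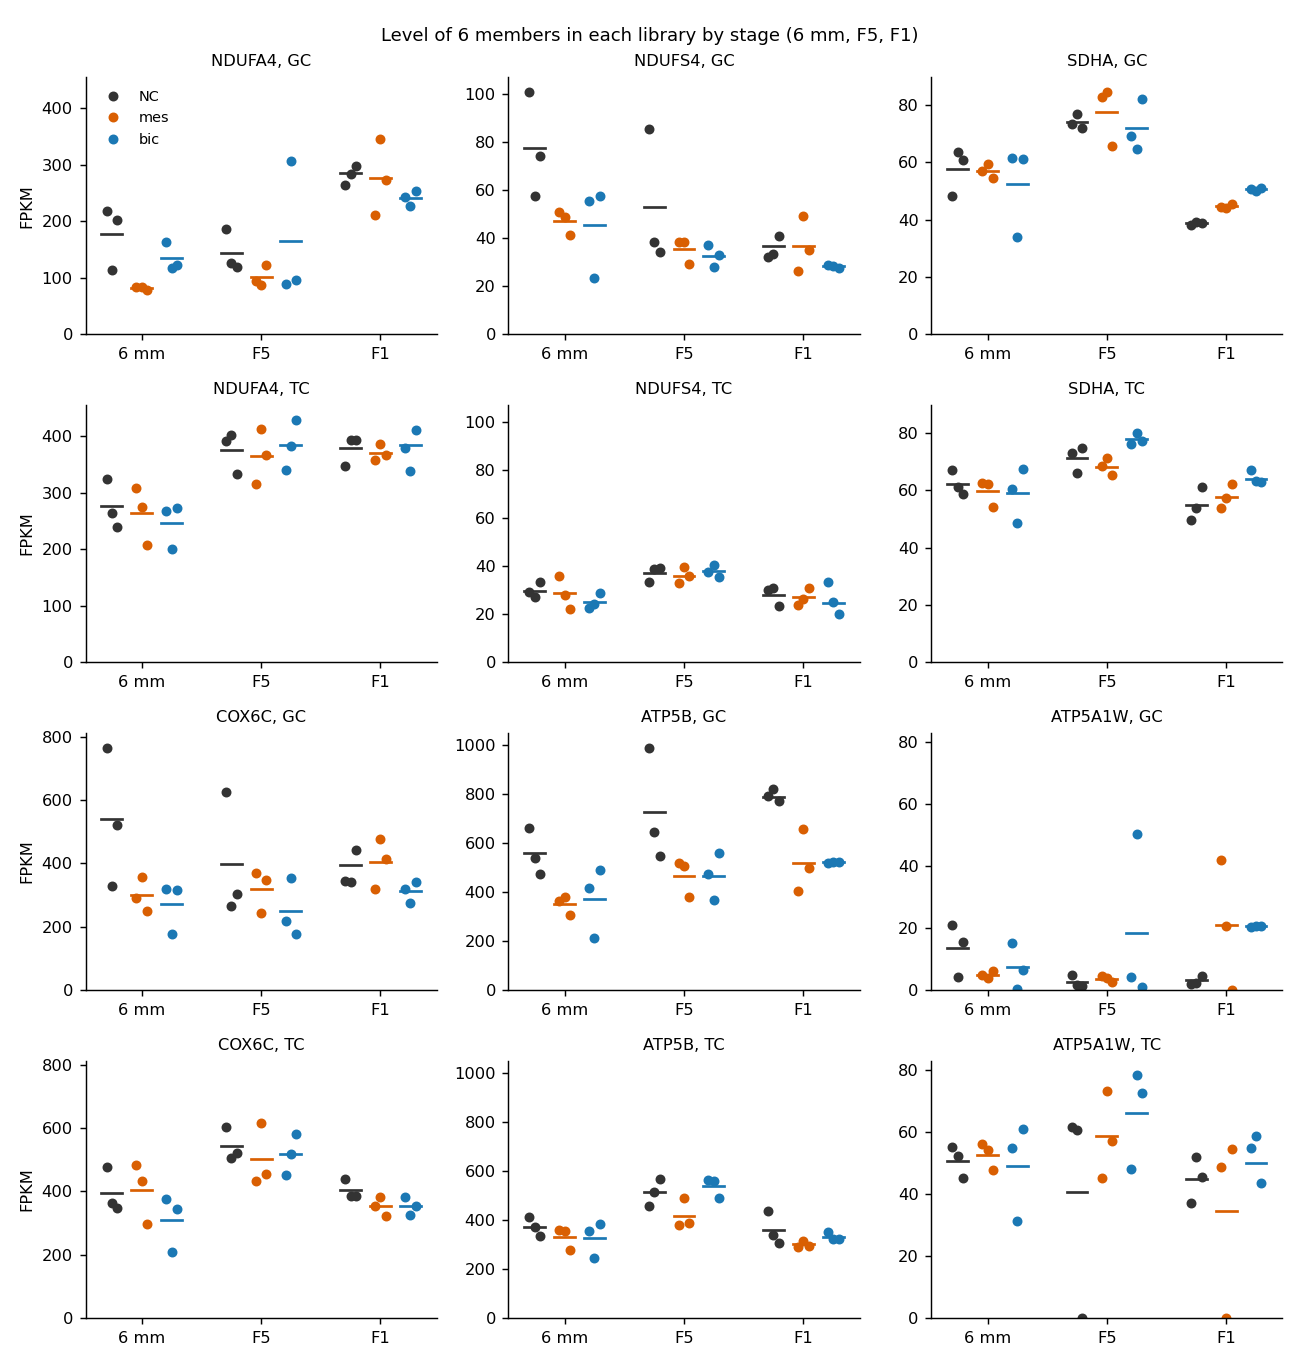
FPKM (y axis) in each library by stage (x axis) of NDUFA4, NDUFS4 and SDHA in the upper 2 rows of panels and of COX6C, ATP5B and ATP5A1W in the lower 2, each gene with GCs above TCs on the same scale; points are libraries or repeat runs, lines are means and colours are treatments. NDUFA4 in NC GCs reaches 264 to 297 FPKM at F1 from 114 to 218 FPKM at 6 mm, SDHA in NC GCs is lowest at F1 (38.2 to 39.3 FPKM), and ATP5A1W is listed at 0 in 3 libraries.

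For the members as a whole, the direction from 6 mm to F1 in GCs depended on the scaling, while their median lay above that of all genes. TMM, RLE and total counts shift all genes by about the same amount, so the distance between the medians can hardly differ among them. Only the values on FPKM are a further measure of it. From 6 mm to F1 in NC GCs the median of the members was 0.58 after TMM, while that of all genes was -0.51. With total counts as library size these medians were -0.23 and -1.32, and on log2(FPKM + 1) they were -0.19 and -0.45, so that the members lay above the median of all genes by 1.10, 1.09 and 0.27. The TMM factors of these libraries ran from 1.19 to 1.303 at 6 mm and from 0.705 to 0.728 at F1. With TMM 16 members were called, all higher, against 32.7% of all genes and 15.4% in this direction. With total counts 0 were called higher and 4 lower, and on FPKM 0 higher and 5 lower. Over all genes total counts called 1353 higher and 5446 lower, and limma on FPKM 1547 and 5149. The hen as a block gave 39 higher and 1 lower with TMM, the latter being NDUFB4, where 5777 of 17974 genes were called. From 6 mm to F1 in these GCs 4 of 10 theca markers (median -4.84), 4 of 6 oocyte markers (-7.22) and 1 of 5 endothelium markers (-4.97) were called lower, and their part was not tested.

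Among the 16 calls with TMM were NDUFV1, which binds NADH, SDHB, the 4 complex III members UQCRC1, UQCRC2, UQCRFS1 and UQCRH, COX5A, and the alpha, beta and c subunit genes ATP5A1, ATP5B and ATP5G3 of ATP synthase. NDUFV1 (chromosome 5, 377265 to 380007) had 128, 118 and 103 FPKM at 6 mm, 194, 129 and 116 at F5 and 193, 188 and 181 at F1. F1 lay above 6 mm and overlapped with F5. The log2 fold change from 6 mm to F1 was 1.46 ± 0.27 (SE, edgeR, adjusted p = 0.00497). ATP5B had 663, 538 and 475 FPKM, then 991, 644 and 548, then 794, 822 and 773, with F1 again above 6 mm. Without NC GC 6 mm replicates 1 and 3, the libraries with theca markers, the median from 6 mm to F1 was 0.80 against -0.19 over all genes. That leaves 1 library at 6 mm, which is no replicated test, and its calls are not counted here. Without F1 replicates 1 and 2 (1 library) 8 were called, and without F1 replicate 3, 5.

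**Figure D4:**
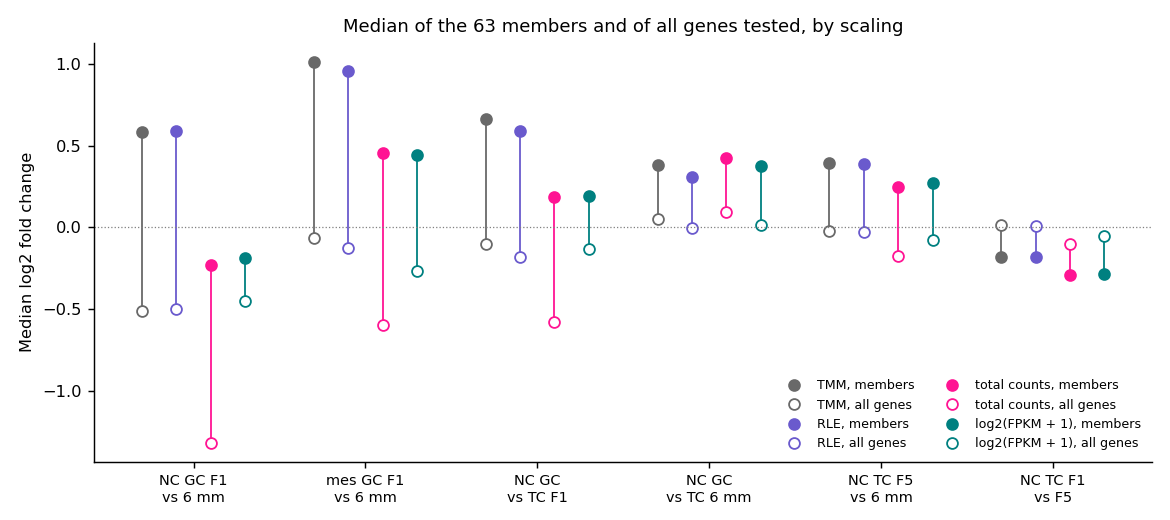
Median log2 fold change (y axis) of the 63 members (filled) and of all genes tested (open), joined by a line, in 6 comparisons (x axis) under 4 scalings: TMM and RLE factors and total counts on the read counts, and log2(FPKM + 1). In NC GCs from 6 mm to F1 the members' median changes sign with the scaling (0.58 with TMM, -0.23 with total counts) and is above the median of all genes, and in TCs from F5 to F1 it is below. TMM, RLE and total counts shift all genes about alike, so the distance between the medians can hardly differ among them.

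From F5 to F1 in NC GCs the median was 0.49 against -0.14 over all genes with TMM, 0.01 against -0.62 with total counts and 0.06 against -0.14 on FPKM. With TMM 7 members were called, all higher, against 23.7% of all genes called and 10.7% called higher: NDUFA4, NDUFB6, NDUFB7, UQCRH, ATP5A1, ATP5G3 and ATP5J2. The hen as a block gave 26 higher and 1 lower, NDUFB4, where 4508 of 17974 genes were called. Without F5 replicate 1, whose sum was the highest of all libraries, 25 members were called, a count whose share over all genes is not given here. Leaving out either library of F1 gave 0, and leaving out F5 replicates 2 and 3 gave 3 and 2. NDUFB6, an accessory subunit of the membrane arm of complex I, had 107, 62.5 and 62.7 FPKM at F5 and 128, 118 and 139 at F1, with no overlap, a log2 fold change of 1.23 ± 0.30 (SE, edgeR, adjusted p = 0.0199). With total counts no member was called higher, and SDHA and NDUFB4 were called lower.

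From 6 mm to F5 in NC GCs edgeR called 0 members, where 6.03% of all genes were called. At an unadjusted p under 0.05 there were 10 members, and 5317 of 17974 genes. DESeq2 called 6, with SDHA, UQCRC1, UQCRFS1 and ATP5C1 higher and NDUFA12 and ATP5A1W lower, and limma on FPKM 1. Over all genes DESeq2 called 3685 and limma 1872. The median was 0.10 with TMM and -0.23 with total counts and on FPKM, and it ran from -0.15 to 0.29 when single libraries were left out.

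SDHA and NDUFB4 had their lowest FPKM in NC GCs at F1. They were not alone in a lower value there, since from 6 mm to F1 the log2 fold change was negative for 10 of 63 members with TMM, 47 with total counts and 44 on FPKM. SDHA (chromosome 2, 85941182 to 85957098), the flavoprotein that oxidises succinate, had 48.3, 63.5 and 60.8 FPKM at 6 mm, 73.5, 76.9 and 72.0 at F5 and 38.2, 39.3 and 38.8 at F1 in NC GCs, with no overlap between any of the stages. With total counts its log2 fold change from F5 to F1 was -0.95 and was called by edgeR, and on FPKM it was -0.92 and was called by limma. With TMM it was -0.48 ± 0.20 (SE, edgeR, adjusted p = 0.122), which was not called. In mes GCs SDHA had 57.1, 59.5 and 54.5, then 83.0, 84.7 and 65.6, then 44.6, 44.2 and 45.7 FPKM, and in bic GCs 61.5, 34.1 and 61.3, then 69.1, 64.6 and 82.3, then 50.9, 49.9 and 51.0 FPKM. F5 was the highest stage in each treatment, and F1 the lowest in NC and mes hens.

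NDUFB4 (chromosome 1, 79816588 to 79819455), named here after its values were seen, is an accessory subunit of the membrane arm of complex I. It had 318, 223 and 276 FPKM at 6 mm, 282, 171 and 223 at F5 and 84.0, 94.8 and 105 at F1 in NC GCs, where F1 lay below both other stages. In mes GCs it had 154, 186 and 175, then 172, 179 and 139, then 84.7, 107 and 113 FPKM, again with F1 the lowest. The log2 fold change from 6 mm to F1 in NC GCs was -0.71 ± 0.26 (SE, edgeR, adjusted p = 0.0662) with TMM, not called, -1.52 with total counts, called, and -0.56 with the hen as a block, called. With total counts COX7A2L and NDUFA12 were also called lower at F1 than at 6 mm, in NC hens (-0.70 and -0.87) and in mes hens (-0.66 and -0.59). COX7A2L is known in mammals as a factor that joins complexes III and IV, and NDUFA12 is an accessory subunit of complex I.

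In GCs of mes hens most members were higher at F1 than at 6 mm. With TMM 51 of 63 were called, all higher, with a median of 1.01 against -0.06 over all genes, where 39% of all genes were called and 21% in this direction. By complex the calls were 23 of 29 in complex I, 2 of 3 in complex II, 7 of 7 in complex III, 6 of 7 in complex IV and 13 of 17 in complex V. With total counts 24 were called higher and 3 lower with a median of 0.46 against -0.60, and on FPKM 25 higher and 4 lower with a median of 0.44 against -0.27. Over all genes total counts called 1853 higher and 4834 lower, and limma on FPKM 1872 and 5188. Of the calls of members, 24 were made under all scalings and tools. They held NDUFA4, NDUFV1 and 10 further complex I members, UQCRFS1, the Rieske protein of complex III, the complex IV members COX4I1, COX5A, COX6A1, COX7A2 and COX7C, and 6 members of complex V. Leaving out single libraries gave 32 to 54 calls, the fewest without 6 mm replicate 3. In this comparison 4 of 5 oocyte markers (median -7.60), 1 of 4 leukocyte markers (-4.66), 1 of 4 endothelium markers (-3.95) and 3 of 8 theca markers (-2.27) were called lower, and 3 granulosa markers higher and 2 lower. The theca markers were low at both stages, with a mean of 2.98 to 6.32 FPKM at 6 mm and 3.00 to 4.20 FPKM at F1. The part of these cells in the result was not tested.

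COX6A1 (chromosome 15, 9341599 to 9342867), a subunit of cytochrome c oxidase in its liver form in mammals, had 284, 279 and 249.5 FPKM at 6 mm, 335, 272 and 259 at F5 and 311, 605 and 480.3 at F1 in mes GCs, with a log2 fold change from 6 mm to F1 of 1.34 ± 0.28 (SE, edgeR, adjusted p = 0.00535). F1 lay above 6 mm and overlapped with F5, and replicate 1 was the lowest of F1, as it was for the summed members. NDUFA4 itself, given above, had the highest fold change of the called members in this comparison. NDUFB6 had 60.5, 57.1 and 56.0 FPKM at 6 mm and 92.1, 161 and 92.0 at F1, a log2 fold change of 1.55 ± 0.28 (SE, edgeR, adjusted p = 0.00285). On FPKM 29 members of 63 were above 6 mm with no overlap (17.7% of all genes) and 4 below (45.9%).

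Other genes that go with the chain differed from each other in the same comparison. Of 74 cytosolic ribosomal protein genes 73 were called higher with TMM (median 1.54) and 66 with total counts (1.00), with none lower. Of 69 mitochondrial ribosomal protein genes 27 were called higher and 4 lower with TMM (0.46) but 6 higher and 17 lower with total counts (-0.09). Of 35 assembly factors of the respiratory chain 12 were called higher and 3 lower with TMM (0.25) but 1 higher and 12 lower with total counts (-0.30), so that the calls of assembly factors turned where those of the subunits did not. Of 15 genes of the citrate cycle 9 were higher and 1 lower with TMM (0.56), and 3 higher and 1 lower with total counts (0.00053). The 13 protein genes of the mitochondrial genome had 0 called higher under either, and 1 and 5 called lower (0.20 and -0.35).

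In bic GCs the F1 group is 1 library, so that only medians are given here for the change from 6 mm to F1. The median was 0.33 with TMM and 0.01 with total counts, against -0.23 and -0.54 over all genes. Without bic GC 6 mm replicate 2 and F5 replicate 2, the libraries that stood apart, it was 0.28 with TMM against -0.13. Replicate 1 of bic GC 6 mm, with 204 FPKM of theca markers, was kept in. Since bic GC F1 is assumed to vary like the other groups, this comparison is no replicated test of that group. The change from 6 mm to F1 differed between mes and NC hens in 0 members with TMM (4.82% of all genes). At an unadjusted p under 0.05 there were 6 members, and 4499 of 18867 genes. DESeq2 called 3, and with total counts NDUFB1, COX5A and ATP5S were called, higher in mes hens. Over all genes DESeq2 called 2521, and total counts gave 1297.

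**Figure D5:**
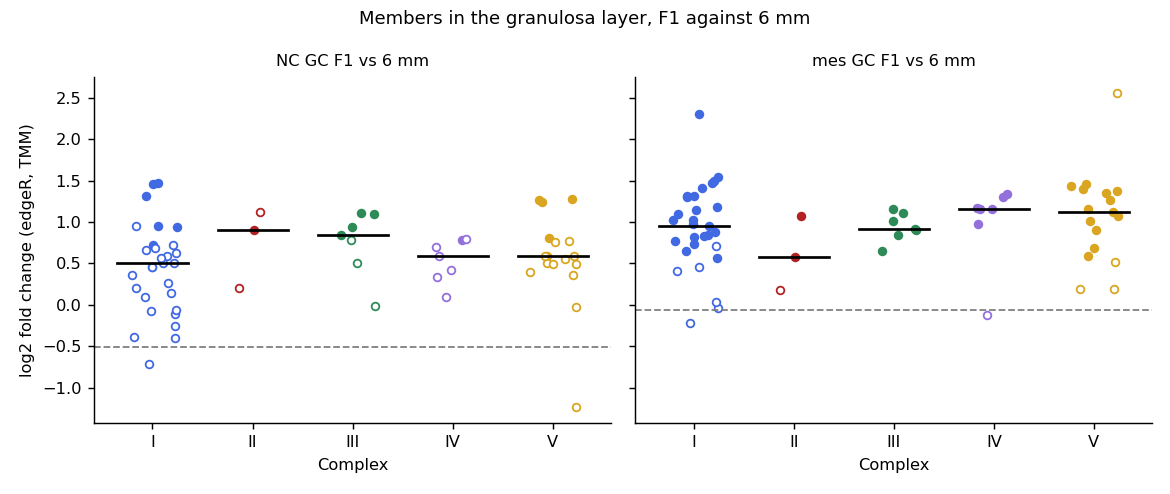
Log2 fold change of each member from 6 mm to F1 (y axis, edgeR with TMM factors) in GCs of NC hens on the left and mes hens on the right, by complex (x axis); filled points are called, open points are not, short lines are medians of a complex and the dashed line is the median of all genes tested. All called members are above 0, 16 in NC and 51 in mes hens; with total counts as library size 0 are called higher in NC and 24 in mes hens.

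With TMM, F1 had the most members called between the layers of the 3 stages. There 37 of 63 were higher in GCs than in TCs of NC hens and 0 lower, with a median of 0.66 against -0.10 over all genes, where 36.5% of all genes were called and 17.7% were higher in GCs. With total counts these were 13 higher and 1 lower, with a median of 0.19 against -0.58, and on FPKM 13 higher and 2 lower, 0.19 against -0.13. Over all genes total counts called 1850 higher and 4811 lower, and limma on FPKM 2111 and 4809. The 13 members higher in GCs under all scalings and tools included NDUFB5, NDUFS1 and NDUFV1 of complex I, SDHB, the complex III members UQCRC1, UQCRC2, UQCRH and UQCRQ, and ATP5A1, ATP5B, ATP5G3 and ATP5SL. With total counts SDHA was the lower one. By complex, the calls with TMM were 16 of 29 in complex I, 2 of 3 in complex II, 6 of 7 in complex III, 3 of 7 in complex IV and 10 of 17 in complex V. Of the NC TC F1 libraries, replicate 1 had a mean of 1238 FPKM of granulosa markers, against 247 and 214 FPKM in replicates 2 and 3. The part of these cells in the result was not tested.

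ATP5B had 794, 822 and 773 FPKM in GCs and 438, 339.6 and 305 in TCs of NC F1 follicles, so that the lowest GC library was well above the highest TC library. The log2 fold change was 1.60 ± 0.28 (SE, edgeR, adjusted p = 0.000517). ATP5A1 had 231, 238 and 215 FPKM in GCs and 127, 119.7 and 100.2 in TCs, also with no overlap, and a log2 fold change of 1.43 ± 0.18 (SE, edgeR, adjusted p = 5.62e-05). Its copy on the W chromosome, ATP5A1W, held 0.861 to 2.04% of the FPKM of the pair in these GCs and 22.5 to 31.2% in these TCs. Both copies together had 233, 240.5 and 219 FPKM in GCs and 164, 172 and 146 in TCs, a smaller difference. A fold change of the pair was not tested. The change from 6 mm to F1 differed between the layers in 11 members, each with the higher change in GCs, where 23.8% of all genes were called and 9.23% in this direction. These were NDUFA10, NDUFB7, NDUFV1, SDHB, UQCRB, UQCRC2, UQCRFS1, UQCRH, ATP5A1, ATP5C1 and ATP5G3. With total counts or on FPKM only ATP5A1 and ATP5G3 remained among those called higher, and NDUFA12 and NDUFB4 were called lower. Without NC GC 6 mm replicates 1 and 3, which leaves 1 library in that group, the median difference was 0.55 against -0.13 over all genes.

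At 6 mm 17 members were higher in GCs than in TCs of NC hens and 0 lower, with a median of 0.38 against 0.05 over all genes (29.1% called, 16.3% higher in GCs), and 14 of the 17 belong to complex I. Total counts gave 21 higher and limma on FPKM 22 higher and 1 lower, more than the 14 and 15 called at F1 under these scalings. Over all genes total counts called 3347 higher and 2345 lower at 6 mm, and limma on FPKM 3794 and 3501. NDUFS4 (chromosome Z, 16103621 to 16149392), an accessory subunit of the arm that binds NADH, had 101.0, 57.5 and 74.2 FPKM in GCs and 29.3, 26.9 and 33.2 in TCs, with a log2 fold change of 1.36 ± 0.30 (SE, edgeR, adjusted p = 0.00446). NDUFS6, another accessory subunit of complex I, had 123, 64.2 and 124 FPKM in GCs and 47.0, 39.8 and 40.7 in TCs, with 1.25 ± 0.31 (SE, edgeR, adjusted p = 0.00821). Replicate 2 was the lowest GC library for both genes and still above all TC libraries. Replicates 1 and 3 of these GCs are the libraries with theca markers and the highest share of the mitochondrial genome. Without them, which leaves 1 GC library, the median was -0.02 against -0.05 over all genes. Leaving out single libraries gave 5 to 16 calls, the fewest without TC replicate 2. In mes hens, FPKM at 6 mm was higher in GCs with no overlap for 6 members (36.3% of all genes) and lower for 25 (34.2%), with NDUFS4 at 51.1, 48.8 and 41.1 FPKM in GCs and 35.7, 27.9 and 22.1 in TCs.

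At F5 the members were mixed between the layers of NC hens, with 2 higher in GCs and 7 lower and a median of -0.01 (31% of all genes called, 13.6% higher and 17.5% lower). The hen as a block gave 4 higher and 10 lower, where 6090 of 19217 genes were called. Without GC replicate 1 there were 0 members higher and 16 lower, counts whose shares over all genes are not given here. NDUFA4 was lower in GCs, with 186, 125 and 118 FPKM against 392, 403 and 333 in TCs, no overlap and a log2 fold change of -1.36 ± 0.24 (SE, edgeR, adjusted p = 0.000785). NDUFS8, a complex I subunit with iron-sulphur clusters, was higher in GCs, with 228, 107 and 94.2 FPKM against 62.8, 80.5 and 81.2, no overlap and 0.96 ± 0.32 (SE, edgeR, adjusted p = 0.0296). Its GC replicate 1, the library with the most member FPKM, was far above the other 2. UQCRC1, a core subunit of complex III, had 202, 149.8 and 146 FPKM in GCs and 100.4, 119 and 135 in TCs, also without overlap, with 0.52 ± 0.18 (SE, edgeR, adjusted p = 0.0336). In mes hens 40 members at F5 were lower in GCs with no overlap (38.6% of all genes) and 2 higher (30.3%), and in bic hens 27 were lower (13.9%) and 0 higher, with GC replicate 2 of bic hens, which held theca markers, included.

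Against NC hens, few members passed the test in drug-fed hens. In GCs of mes hens at 6 mm 62 of 63 members had a negative log2 fold change, with a median of -0.79 against -0.18 over all genes, but edgeR called 0, where 0.0583% of all genes were called. At an unadjusted p under 0.05 there were 48 members, and 3878 of 18867 genes. DESeq2 called 28 members and 1636 genes, and limma on FPKM 5 members and 317 genes. The members called were all lower, those of limma being NDUFB9, NDUFB10, UQCRB, COX4I1 and ATP5G2. FPKM was lower with no overlap for 53 members (18.2% of all genes) and higher for 0. COX4I1, the regulatory subunit IV of cytochrome c oxidase, had 154, 167 and 149.8 FPKM in mes and 374, 227 and 326 in NC hens. The NC libraries are again those of which replicates 1 and 3 held theca markers. Without these, which leaves 1 NC library, the median was -0.48 against 0.01 over all genes. Without replicate 2, the lowest of the NC libraries, 29 members were called lower, a count whose share over all genes is not given here. The share of the mitochondrial genome in all FPKM was 8.62, 9.43 and 8.40% in mes GC 6 mm.

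At F5 the median in mes GCs against NC was -0.51 against 0.02 over all genes, with 0 calls by edgeR, DESeq2 and limma and 0% of all genes called by edgeR. With edgeR 16 members had an unadjusted p under 0.05, as had 2167 of 18867 genes. FPKM did not overlap for 14 members, all lower (12% of all genes). At F1 the median was -0.36 against 0.00, and 2 members fell, where 10.3% of all genes were called and 4.21% called lower. ATP5A1 was among them, and its call was made under all scalings and tools.

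ATP5A1 had 231, 238 and 215 FPKM in NC and 82.3, 145 and 110.1 in mes F1 GCs, a log2 fold change of -1.22 ± 0.26 (SE, edgeR, adjusted p = 0.01). The groups did not overlap. These are values of the Z copy alone. ATP5A1W held 33.8, 12.4 and 0% of the FPKM of the pair in these mes libraries and 0.861 to 2.04% in those of NC. Both copies together, given below, differed less, and a fold change of the pair was not tested. NC stands for 2 libraries here, and without replicates 1 and 2 (1 library) 0 members were called, without replicate 3 of NC or replicate 1 of mes 1 was, and without mes replicate 2, the highest of its group for ATP5A1, 14 were, 13 of them lower.

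In bic hens edgeR called 0 members against NC in any of the 6 groups. In GCs at 6 mm 29 members had a lower FPKM with no overlap (10.2% of all genes) and 0 a higher one. The medians in GCs were -0.45 at 6 mm, -0.37 at F5 and -0.59 at F1 against -0.03, 0.16 and 0.00 over all genes. The calls of edgeR at these stages were 0 members each, where 0%, 0% and 5.02% of all genes were called. At an unadjusted p under 0.05 there were 3 members at 6 mm and 7 at F5, and 1352 and 2670 of 20168 genes. At F1 the bic group is 1 library. Without bic GC 6 mm replicate 2 and F5 replicate 2 the medians were -0.33 at 6 mm, -0.59 at F5 and -0.59 at F1. Those of all genes were then -0.12, 0.00 and 0.00. Replicate 1 of bic GC 6 mm, with 204 FPKM of theca markers, was kept in. Without NC GC 6 mm replicates 1 and 3, which leaves 1 NC library at 6 mm, the median there was -0.21 against 0.09. DESeq2 and limma called 0 members at 6 mm and F5. ATP5A1 had 130.2, 125 and 127 FPKM in the runs of bic GC F1, values of 1 library. That library is assumed to vary like the other groups, so that the comparison at F1 is no replicated test of bic hens. The comparisons of both drugs share the NC libraries.

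In TCs no member was called in mes or bic hens against NC at any stage by edgeR. The medians were -0.04, -0.12 and -0.10 in mes hens at 6 mm, F5 and F1, with 0%, 0% and 0.0332% of all genes called. At an unadjusted p under 0.05 there were 0, 3 and 1 members, and 810, 2090 and 2137 of 18060 genes. In bic hens the medians were -0.24, 0.04 and -0.15, with 0.00539%, 0% and 0.178% of all genes called. There 9, 0 and 2 members had an unadjusted p under 0.05, as had 919, 612 and 2376 of 18554 genes. DESeq2 and limma called 0 members in each of these 6 comparisons.

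Some subunits are given by more than 1 gene. The alpha subunit of ATP synthase has a copy on Z, ATP5A1, and one on W, ATP5A1W (chromosome W, 1442318 to 1504348), so near in sequence that the split of reads between them is uncertain. ATP5A1W had 20.9, 4.19 and 15.4 FPKM at 6 mm, 4.87, 1.68 and 1.302 at F5 and 2.01, 2.33 and 4.47 at F1 in NC GCs. In NC TCs it had 55.1, 52.3 and 45.2, then 61.6, 60.7 and 0, then 37.0, 52.0 and 45.5 FPKM. It was listed at 0 in NC TC F5 replicate 3, mes TC F1 replicate 2 and mes GC F1 replicate 3, while the other TC libraries ran from 31.3 to 78.3 FPKM. Its log2 fold change between the layers at F5, -3.93 ± 1.40 (SE, edgeR, adjusted p = 0.0413), lost its call when any of 5 of the 6 libraries was left out. Both copies together had 233, 240.5 and 219 FPKM in NC and 124, 165 and 110.1 in mes F1 GCs, which did not overlap.

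The genes ATP5G1, ATP5G2 and ATP5G3 give the same mature subunit c from different precursors, with means of 152, 143 and 205 FPKM over all libraries. ATP5G1 followed ATP5G3 in NC TCs, with 156, 143 and 138, then 190.4, 181 and 195, then 132, 136 and 129 FPKM, and F5 above both other stages. ATP5S, coupling factor B, and ATP5SL, known in mammals as an assembly factor of complex I, carry names of ATP synthase without being subunits of it. They were the lowest of the 63, with means of 9.80 and 18.7 FPKM. ATP5S had 5.23, 4.30 and 5.38 FPKM in NC and 16.7, 9.59 and 12.2 in mes F1 GCs, and was called higher in mes with total counts (1.32) and on FPKM (1.16) but not with TMM.

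Complex II, the only complex of the chain with no subunit from the mitochondrial genome, had 3 members. SDHB had 83.1, 88.5 and 93.6 FPKM at 6 mm, 106, 92.7 and 78.3 at F5 and 92.7, 94.7 and 98.4 at F1 in NC GCs, with the stages overlapping, and a log2 fold change from 6 mm to F1 of 0.90 ± 0.19 (SE, edgeR, adjusted p = 0.00956) with TMM that was not called with total counts or on FPKM. In NC TCs it had 83.4, 74.9 and 69.9, then 91.6, 98.3 and 94.4, then 71.5, 74.3 and 60.0 FPKM, with 0.11 ± 0.13 (SE, edgeR, adjusted p = 0.597) from 6 mm to F1. SDHA and SDHB thus differed in GCs: FPKM at F1 lay below 6 mm and F5 for the flavoprotein and not for the iron-sulphur subunit. SDHA in NC TCs had 67.2, 61.2 and 58.6, then 73.0, 66.1 and 74.7, then 49.8, 53.8 and 61.1 FPKM. SDHC in NC GCs had 48.2, 47.7 and 41.6, then 77.4, 35.3 and 31.7, then 54.9, 53.5 and 61.7 FPKM.

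Of complex III and IV, UQCRH and COX6C were the most abundant. UQCRH had 180.1, 181 and 194 FPKM at 6 mm, 215, 171 and 186 at F5 and 213, 218 and 250.5 at F1 in NC GCs and 214, 182 and 162, then 219, 229 and 261, then 179.8, 166 and 170.1 FPKM in NC TCs. COX6C had 766, 330.0 and 521 FPKM, then 627, 266 and 305, then 345, 342 and 443 in NC GCs and 475, 363 and 348, then 604, 506 and 520.3, then 439.7, 385 and 384 FPKM in NC TCs. In TCs F5 was the highest stage by mean for both, and edgeR with TMM called COX6C in none of the comparisons of stages in NC hens. DESeq2 called it higher from 6 mm to F5 in TCs (log2 fold change 0.59), and edgeR with the hen as a block called it higher in GCs from 6 mm to F1 (0.73) and from F5 to F1 (0.86). COX7A2, a subunit of complex IV, and COX7A2L share a name and not a pattern. In mes GCs at 6 mm and F1 COX7A2 had 38.8, 35.4 and 32.2 and 43.0, 57.2 and 62.6 FPKM, with a log2 fold change of 1.15 ± 0.20 (SE, edgeR, adjusted p = 0.00227), and COX7A2L 88.7, 80.7 and 91.3 and 59.3, 45.1 and 61.7 FPKM, with -0.13 ± 0.15 (SE, edgeR, adjusted p = 0.503).

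In NC hens the other genes of the pathway also depended on the scaling in GCs and less so in TCs. From 6 mm to F1 in GCs, of 15 genes of the citrate cycle 9 were called higher and 1 lower with TMM (median 0.89) and 4 higher and 3 lower with total counts (0.08). Of 17 genes of glycolysis 9 were higher and 0 lower with TMM (1.16) and 5 higher and 3 lower with total counts (0.35). Of 16 regulators of mitochondrial biogenesis 2 were higher and 6 lower with TMM (-0.34) and 0 higher and 10 lower with total counts (-1.12). The 13 genes of the mitochondrial genome had 0 called either way with TMM (-0.72) and 7 lower with total counts (-1.53), and the 35 assembly factors 6 higher and 2 lower (0.10) and 1 higher and 12 lower (-0.72). In TCs from F5 to F1, 10 of 69 mitochondrial ribosomal protein genes and 5 of 35 assembly factors were called lower and 0 higher with TMM, and 18 and 6 lower and 0 higher with total counts. In TCs from 6 mm to F5 the medians of the citrate cycle, of glycolysis and of the mitochondrial ribosomal proteins were 0.39, 0.58 and 0.36 with TMM and 0.24, 0.42 and 0.21 with total counts, with 1, 3 and 2 genes called higher with TMM and 0 with total counts. The mitochondrial genome had a median of -0.28 with TMM in the same step, with 0 called. Between the layers at 6 mm 12 of the 13 genes of the mitochondrial genome and 42 of 69 mitochondrial ribosomal protein genes were called higher in NC GCs with TMM (12 and 45 with total counts), with the same libraries as the complex I members above.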

How the data were processed

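The authors trimmed reads of both follicle layers with Cutadapt, aligned them with HISAT2 2.1.0 to Gallus_gallus-5.0, removed duplicates with Samtools and quantified annotated genes with StringTie 1.3.4d (versions from the submitters' processing notes). The counts deposited by the authors are whole numbers per gene, and in all 54 libraries they equal StringTie coverage times transcript length over 75 bases within 1. The FPKM values deposited by the authors, 1 per transcript, were summed by gene. Count rows that name no annotated gene (5, 0.0576 to 0.605% of counts) were left out.

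Members and gene lists were chosen with earlier results of these data known. Groups follow the labels. Runs of 1 library were summed. Over degrees of freedom, chi-square was 4.65 to 5.77 in the 5 pairs of such runs and 11.1 to 53.7 in 49 other pairs of libraries. Counts made from coverage follow bases and can exceed the fragments sequenced, and divided by 4 these values are 1.16 to 1.44 and 2.78 to 13.4. Other replicates carry different numbers in their library names.

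Counts were tested with edgeR 4.0.16 (R 4.3.3; filterByExpr, TMM, glmQLFTest) over all genes with Benjamini-Hochberg adjustment, after a check on simulated data. Stage fits held the 3 stages of a treatment and layer, drug fits both treatments of a layer, and layer fits both layers. Alternatives were RLE factors, DESeq2 1.42.0, limma 3.58.1 on log2(FPKM + 1), no count filter, no minimum FPKM, compared groups only, a threshold of 1.5 on the size of the log2 fold change, repeat runs kept apart, libraries left out, the hen as a block and, added after seeing the data, total counts as library size. Libraries of a treatment whose names carry the same number were taken to come from the same hen, which no label states. Their residuals correlated with a median of 0.179 over 16 comparisons of stages and 0.116 over 8 of layers, and with 0.00851 between treatments, which share numbers only. Every pair was over 0.1 in 7 of the 16 and 3 of the 8.

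A rule named the 2 called members with the largest change in each direction and comparison, the highest member of each complex, paralogues and the SDH genes. Other members were named after their values were seen. Values of 1 item are not reported here.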

Additional observations from a re-analysis of the deposited data

Results flagged for a closer look

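Between the layers of NC hens the change from 6 mm to F1 differed, by the interaction test of edgeR with TMM factors over 19217 genes, in 11 members, each with the higher log2 fold change in GCs. These are 17.5% of the members, where 23.8% of all genes were called and 9.23% in this direction. The difference was 1.28 for ATP5G3 and 1.22 for ATP5A1, the c and alpha subunits of ATP synthase, and 0.81 for ATP5C1, its gamma subunit. The value of ATP5A1 is that of the Z copy alone, and the pair with ATP5A1W was not tested. In complex I it was 0.98 for NDUFV1, 0.94 for NDUFB7 and 0.62 for NDUFA10. In complex III it was 0.94 for UQCRH, 0.83 for UQCRC2, 0.78 for UQCRFS1, the Rieske protein, and 0.71 for UQCRB, and in complex II it was 0.77 for SDHB. With total counts as library size or on FPKM, ATP5A1 and ATP5G3 were called among these and the other 9 were not. Theca markers in NC GC 6 mm replicates 1 and 3 moved with the 6 mm end of this contrast. Without these libraries, which leaves 1 library of GCs at 6 mm, the median difference of the members was 0.55 against -0.13 over all genes.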

How the results depend on the processing

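The tests were recomputed under each alternative, and the values that moved are given here as members called of 63 or as medians of the members' log2 fold changes. The difference between layers is that of the change from 6 mm to F1 in NC hens (GCs minus TCs), and the difference of mes and NC is that of the same change (mes minus NC). As reported, the calls were 0 for NC GC F5 against 6 mm, 7 for NC GC F1 against F5, 16 for NC GC F1 against 6 mm, 6 for NC TC F5 against 6 mm, 6 for NC TC F1 against F5, 7 for NC TC F1 against 6 mm, 17 for NC GCs against TCs at 6 mm, 9 for NC GCs against TCs at F5, 37 for NC GCs against TCs at F1, 0 for mes against NC GCs at 6 mm, 2 for mes against NC GCs at F1, 0 for bic against NC GCs at F1, 51 for mes GC F1 against 6 mm, 1 for mes TC F1 against 6 mm, 0 for bic GC F1 against 6 mm, 1 for bic TC F1 against 6 mm, 11 for the difference between layers and 0 for the difference of mes and NC in GCs. DESeq2 called 6 for NC GC F5 against 6 mm, 13 for NC GC F1 against F5, 39 for NC TC F5 against 6 mm, 16 for NC TC F1 against F5, 12 for NC TC F1 against 6 mm, 28 for mes against NC GCs at 6 mm, 10 for mes against NC GCs at F1, 2 for mes TC F1 against 6 mm and 3 for the difference of mes and NC in GCs. Over all genes DESeq2 called 3685, 5736, 2945, 3376, 5055, 1636, 3219, 5296 and 2521 genes in these comparisons, in the same order. Its count for bic against NC GCs at F1, where bic is 1 library, is not listed. Repeat runs kept as separate replicates gave 3 for NC GC F5 against 6 mm, 12 for NC GC F1 against F5, 7 for mes against NC GCs at F1, 24 for bic against NC GCs at F1, 1 for bic GC F1 against 6 mm and 3 for the difference of mes and NC in GCs. The runs of bic GC F1 are of 1 library, so the counts of 24 and 1 hold no spread between hens of that group. Neither count is a replicated test of bic hens, and their shares over all genes are not listed. A second threshold of 1.5 on the size of the log2 fold change left 0 in each NC comparison of stages. No filter on low counts gave 3 for NC TC F5 against 6 mm, 2 for NC TC F1 against 6 mm and 0 for bic TC F1 against 6 mm, and fits of the compared groups alone 12 for NC TC F5 against 6 mm, 1 for NC TC F1 against F5, 1 for NC TC F1 against 6 mm, 4 for NC GCs against TCs at F5, 0 for mes against NC GCs at F1 and 0 for bic TC F1 against 6 mm. Leaving out NC GC 6 mm replicates 1 and 3, which leaves 1 library in that group, gave the medians stated above, among them -0.017 for NC GCs against TCs at 6 mm. Leaving out bic GC 6 mm replicate 2 and F5 replicate 2 gave a median of -0.59 for bic against NC GCs at F1 and of 0.28 for bic GC F1 against 6 mm, where bic GC F1 is 1 library. The hen as a replicate block, a pairing taken from the numbers in the library names, gave 27 for NC GC F1 against F5, 40 for NC GC F1 against 6 mm, 0 for NC TC F5 against 6 mm, 4 for NC TC F1 against 6 mm, 14 for NC GCs against TCs at F5 and 0 for bic TC F1 against 6 mm, and changed no other count within a treatment by over 1.5 times. In fits of drug-fed and NC hens the block joined hens that share a number only, so its counts there are no paired test. Total counts as library size, an alternative chosen after seeing the data, gave 1 for NC GC F5 against 6 mm, 2 for NC GC F1 against F5, 4 for NC GC F1 against 6 mm, 0 for NC TC F5 against 6 mm, 19 for NC TC F1 against F5, 4 for NC TC F1 against 6 mm, 14 for NC GCs against TCs at F1, 27 for mes GC F1 against 6 mm, 3 for mes TC F1 against 6 mm, 0 for bic TC F1 against 6 mm, 4 for the difference between layers and 3 for the difference of mes and NC in GCs. Medians turned there to -0.23 for NC GC F5 against 6 mm, -0.23 for NC GC F1 against 6 mm, -0.056 for NC TC F1 against 6 mm, -0.083 for mes TC F1 against 6 mm and -0.15 for the difference between layers. Limma on log2(FPKM + 1) gave 1 for NC GC F5 against 6 mm, 3 for NC GC F1 against F5, 5 for NC GC F1 against 6 mm, 21 for NC TC F1 against F5, 6 for NC TC F1 against 6 mm, 15 for NC GCs against TCs at F1, 5 for mes against NC GCs at 6 mm, 29 for mes GC F1 against 6 mm, 4 for mes TC F1 against 6 mm, 0 for bic TC F1 against 6 mm, 4 for the difference between layers and 3 for the difference of mes and NC in GCs. There the median was -0.23 for NC GC F5 against 6 mm, -0.19 for NC GC F1 against 6 mm, -0.035 for NC TC F1 against 6 mm, -0.050 for mes TC F1 against 6 mm, -0.12 for the difference between layers and 0.00093 for the difference of mes and NC in TCs, and relative to all genes -0.033 for NC GC F5 against 6 mm. Under these 2 scalings more members were called lower than higher from 6 mm to F1 in NC GCs, NC TCs and mes TCs and from F5 to F1 in NC GCs, and the share of higher calls among all genes called also moved. With TMM, total counts and limma it was 55.8, 28.4 and 27.9% for NC GC F5 against 6 mm, 45.4, 24.8 and 27.8% for NC GC F1 against F5, 47.2, 19.9 and 23.1% for NC GC F1 against 6 mm, 43.9, 18.4 and 23.5% for NC TC F5 against 6 mm, 51.3, 34.0 and 33.1% for NC TC F1 against F5, 47.2, 21.8 and 22.6% for NC TC F1 against 6 mm, 48.5, 27.8 and 30.5% for NC GCs against TCs at F1, 53.7, 27.7 and 26.5% for mes GC F1 against 6 mm and 51.0, 28.02 and 30.8% for mes TC F1 against 6 mm. The cause of these differences was not tested. With single libraries left out, the calls ran from 0 to 3 for NC GC F5 against 6 mm, 0 to 25 for NC GC F1 against F5, 5 to 13 for NC GC F1 against 6 mm, 0 to 10 for NC TC F5 against 6 mm, 0 to 6 for NC TC F1 against F5, 1 to 6 for NC TC F1 against 6 mm, 5 to 16 for NC GCs against TCs at 6 mm, 4 to 16 for NC GCs against TCs at F5, 22 to 33 for NC GCs against TCs at F1, 0 to 29 for mes against NC GCs at 6 mm, 0 to 14 for mes against NC GCs at F1, 32 to 54 for mes GC F1 against 6 mm, 0 to 3 for mes TC F1 against 6 mm, 0 to 0 for bic TC F1 against 6 mm, 4 to 10 for the difference between layers and 0 to 3 for the difference of mes and NC in GCs. The median then ran from -0.15 to 0.29 for NC GC F5 against 6 mm, -0.29 to 0.11 for NC GCs against TCs at F5, -0.19 to 0.084 for mes against NC TCs at 6 mm and -0.17 to 0.085 for the difference of mes and NC in TCs, and relative to all genes from -0.011 to 0.37 for NC GC F5 against 6 mm, -0.26 to 0.12 for NC GCs against TCs at F5, -0.17 to 0.080 for mes against NC TCs at 6 mm, -0.13 to 0.37 for the difference of mes and NC in GCs and -0.17 to 0.047 for the difference of mes and NC in TCs. For the genes named by the fixed rule, 188 values under alternatives other than single libraries kept their call and 36 lost it, none with a turned sign. Neither RLE factors nor leaving out the minimum FPKM moved a count by over 1.5 times. Counts of calls with single libraries left out are given without their shares over all genes. With 1 to 3 libraries a group, counts of calls rest on few hens, and where a group holds 1 library it is assumed to vary like the other groups.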
